A study of Mus musculus with 16 samples.

Results

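The Wnt-driven pericentral programme of the liver was represented by 10 genes (Axin2, Lgr5, Tbx3, Rnf43, Znrf3, Rspo3, Wnt2, Cyp1a2, Cyp2e1 and Oat), at which open chromatin was examined. The data were DNase-seq peaks, that is, DNase hypersensitive sites (DHS) where the enzyme DNase I cuts accessible DNA, from liver nuclei of mice of both sexes and 2 strains. C57BL/6J (B6) gave the mouse reference genome, and CAST/EiJ (CAST) is an inbred strain of wild origin from another subspecies. All mice were 8 weeks old by their labels and untreated as far as the labels state, and nuclei of each liver were digested with 32 U of DNase I. Each of the 4 groups (male B6, female B6, male CAST and female CAST) had 4 libraries, which the authors merged before calling peaks, so that 1 DHS list per group was available, no spread between livers could be computed and no test between groups was possible. Every DHS whose joined region overlapped a member gene or the 20 kb on either side of it was taken, which gave 56 of 51482 regions in mm9. Whole liver was used, so hepatocytes of all zones and non-hepatocytes contributed to each list. Fewer cells with an open site and less accessibility per cell cannot be told apart in such data, and the zone in which a site was open was not measured.

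Hepatocytes along the liver lobule carry out different functions. Those around the central vein receive Wnt ligands, such as Wnt2, and R-spondins, such as Rspo3, that are made mainly by endothelial cells of the central vein and neighbouring sinusoids. R-spondins bind Lgr receptors, such as Lgr5, and thereby keep the ubiquitin ligases Rnf43 and Znrf3 from removing Wnt receptors from the cell surface. Stabilised β-catenin then acts with DNA-binding factors of the TCF/LEF family, whose preferred site holds the letters ATCAAAG. Axin2, Lgr5, Tbx3, Rnf43 and Znrf3 are widely used as target genes of the pathway, and Cyp1a2, Cyp2e1 and Oat encode enzymes of pericentral hepatocytes that metabolise xenobiotics and ornithine.

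Of the 56 regions, 10 held the TCF/LEF letters within 300 bp centred on the summit, the position of highest read coverage in a peak. The windows of 7 of them are shown from the mm9 plus strand, 5′ to 3′, with the match in capitals (CTTTGAT is the same site read from the other strand). The first 5 are those found in all 4 lists, and the other 2 are those whose nearest edge lay within 2.5 kb of the gene's own start and that were found in only some lists.
Axin2 start, chr11:108781739-108782038: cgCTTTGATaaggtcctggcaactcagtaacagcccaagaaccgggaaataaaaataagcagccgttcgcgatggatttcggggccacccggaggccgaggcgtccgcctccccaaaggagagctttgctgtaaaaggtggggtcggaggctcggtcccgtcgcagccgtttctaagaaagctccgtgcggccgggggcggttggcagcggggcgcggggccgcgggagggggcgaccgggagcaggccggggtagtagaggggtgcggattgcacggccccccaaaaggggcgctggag
Znrf3, 7.2 kb upstream, chr11:5351923-5352222: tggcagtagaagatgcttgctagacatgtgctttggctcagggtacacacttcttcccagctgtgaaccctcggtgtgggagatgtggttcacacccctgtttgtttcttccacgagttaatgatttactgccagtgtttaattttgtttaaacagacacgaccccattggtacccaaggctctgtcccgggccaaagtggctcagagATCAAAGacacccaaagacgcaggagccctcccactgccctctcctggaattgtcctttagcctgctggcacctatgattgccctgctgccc
Rnf43, intron 26.9 kb into the gene, chr11:87502982-87503281: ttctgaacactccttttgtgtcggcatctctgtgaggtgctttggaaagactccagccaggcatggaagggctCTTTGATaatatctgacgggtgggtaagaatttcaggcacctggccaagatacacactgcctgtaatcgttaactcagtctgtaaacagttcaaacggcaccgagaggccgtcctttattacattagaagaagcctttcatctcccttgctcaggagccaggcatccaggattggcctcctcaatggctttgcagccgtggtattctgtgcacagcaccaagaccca
Cyp1a2, 12.2 kb past the start and downstream of the gene, chr9:57519086-57519385: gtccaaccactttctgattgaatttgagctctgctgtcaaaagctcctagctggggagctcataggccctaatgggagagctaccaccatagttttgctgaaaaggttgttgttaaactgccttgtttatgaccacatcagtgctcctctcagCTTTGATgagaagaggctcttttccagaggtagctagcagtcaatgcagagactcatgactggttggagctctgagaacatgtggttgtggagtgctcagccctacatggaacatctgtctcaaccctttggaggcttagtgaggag
Cyp2e1, 6.9 kb upstream, chr7:147942542-147942841: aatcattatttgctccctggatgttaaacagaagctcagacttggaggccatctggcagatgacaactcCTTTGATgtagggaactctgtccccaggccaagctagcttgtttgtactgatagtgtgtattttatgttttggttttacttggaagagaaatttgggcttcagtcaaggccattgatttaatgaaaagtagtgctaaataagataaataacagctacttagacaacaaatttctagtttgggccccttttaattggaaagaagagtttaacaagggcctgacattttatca
Cyp1a2, 2.6 kb upstream, chr9:57533958-57534257: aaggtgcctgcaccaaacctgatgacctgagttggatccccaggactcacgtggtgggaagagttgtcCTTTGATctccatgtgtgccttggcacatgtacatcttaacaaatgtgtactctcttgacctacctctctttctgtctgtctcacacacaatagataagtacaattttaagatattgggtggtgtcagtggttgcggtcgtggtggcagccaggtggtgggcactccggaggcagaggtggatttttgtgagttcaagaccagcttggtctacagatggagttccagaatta
Oat, 2.0 kb upstream, chr7:139769920-139770219: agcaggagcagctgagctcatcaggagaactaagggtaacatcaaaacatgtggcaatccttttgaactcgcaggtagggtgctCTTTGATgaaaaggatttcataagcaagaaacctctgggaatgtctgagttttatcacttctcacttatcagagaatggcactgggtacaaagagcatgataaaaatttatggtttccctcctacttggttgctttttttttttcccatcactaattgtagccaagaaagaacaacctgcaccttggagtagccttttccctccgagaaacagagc

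The centre of the match lay 145 bp to the left of the summit (in plus-strand coordinates) at the Axin2 start, 61 bp to the right upstream of Znrf3, 74 bp to the left in the Rnf43 intron and 78 bp to the left upstream of Cyp2e1. It lay only 6 bp from the summit in the region downstream of Cyp1a2. At the sites found in some lists, it lay 79 bp to the left of the summit upstream of Cyp1a2 and 63 bp to the left upstream of Oat. The remaining 3 matches were in regions found in 1 or 2 lists, in introns of Rnf43 (47.1 kb into the gene) and Znrf3 (33 kb) and 22 kb past the Cyp1a2 start. None of the 10 matches overlapped the letters searched for HNF4, which contain a similar stretch.

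The TCF/LEF letters were present in 17.9% of member regions (10 of 56, Wilson 95% interval 10 to 29.8%, which covers counting error only) against 5.20% of all regions of the series. They stood in 7 of 32 distal member regions, where 6.30% of all distal regions held them, and in 3 of 24 member regions near a start site, against 2.95%. At least 1 such region was found at 6 of the 10 genes. Cyp1a2 had 3, Rnf43 and Znrf3 had 2 each, and Axin2, Cyp2e1 and Oat had 1 each, whereas Lgr5, Tbx3, Rspo3 and Wnt2 had none. Among regions found in all 4 lists, the letters were present in 5 of 23 member regions against 4.21% of such regions in the whole series. Regions of the same gene are not independent draws, and the members were chosen as Wnt-related genes, so these shares are descriptions and a match is not evidence of binding.

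The shares of the other liver motifs were closer to those of all regions. FOXA letters (TGTTTAC) were found in 7.14% of member regions and 6.59% of all regions, HNF4 letters (AAAGTCC) in 5.36% and 6.93%, C/EBP letters (TTGCNNAA) in 16.1% and 17.2%, and HNF1 letters (GTTAATNAT) in 1.79% and 2.03%. These factors bind regulatory elements throughout the hepatocyte genome. The letters for the aryl hydrocarbon receptor (AHR, TNGCGTG), a regulator of Cyp1a2, were found in 5 of 56 member regions (8.93%) against 4.45% of all regions, with an interval of 3.87 to 19.3% that includes the latter. All motifs were searched on both strands.

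**Figure D1:**
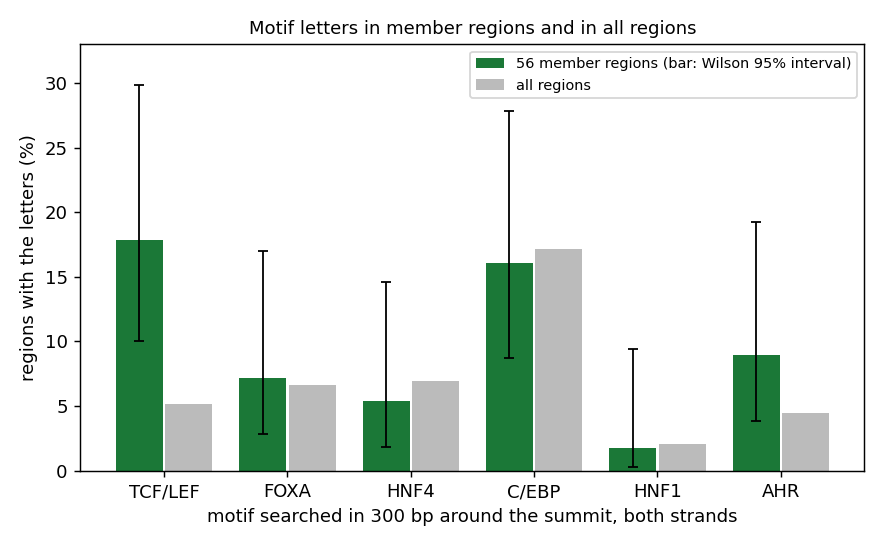
Share of regions (%, bars from 0) that held each set of motif letters in 300 bp around the summit, for the 56 member regions (green, with Wilson 95% intervals) and all 51482 regions (grey). The member bar for TCF/LEF stands at 17.9% against 5.20%, and the intervals of the 5 other motifs include the grey bars.

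The same letters were then counted at other gene lists. The 8 further pericentral genes (Glul, Slc1a2, Rhbg, Lect2, Ahr, Gulo, Cyp7a1 and Cldn2) had 39 regions, of which 7 held the TCF/LEF letters, or 17.9%. At 12 periportal genes, which mark hepatocytes at the opposite end of the lobule, 6 of 94 regions (6.38%) held them. At 5 general hepatocyte genes, of which Alb was also on the periportal list, 3 of 49 did (6.12%), and at 20 other genes of the Wnt pathway 8 of 136 did (5.88%). The pericentral lists thus both stood above the share of all regions, while the pathway genes as a group stood close to it. The difference between lists was not tested.

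Presence in the lists varied widely among the 56 regions. The numbers found were 45, 29, 46 and 29 in male B6, female B6, male CAST and female CAST, where the whole lists held 38392, 25718, 39235 and 24355 regions. In all 4 lists, 23 member regions (41.1%) were found, against 35.6% of all regions, and 18 (32.1%) were found in 1 list, against 35.2%. The 18 single-list regions comprised 10 in male CAST (17.9% of member regions, against 15.2% of all regions), 7 in male B6 (12.5%, against 14.2%) and 1 in female B6 (1.79%, against 3.13%). No member region was found in female CAST alone, as 2.54% of all regions were. The regions found in every list but female B6 numbered 6, or 10.7% against 4.73% of all regions. The median protein-coding gene had 2 regions in such a window (quartiles 0 and 5), and the members had a median of 4.5. Rnf43 had 12 regions and Znrf3 had 11, and 2.58% of protein-coding genes had 12 or more. Cyp1a2 had 9, Oat 8, Cyp2e1 6 and Tbx3 3. Axin2, Rspo3 and Wnt2 had 2 each, and Lgr5 had 1 in a window of 177 kb.

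**Figure D2:**
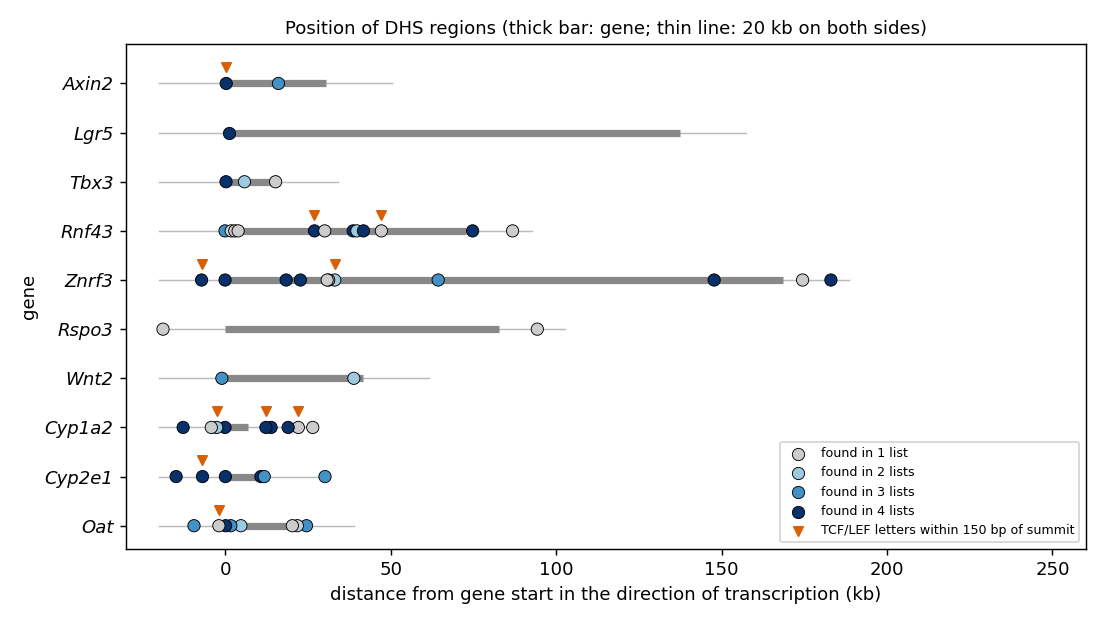
Position of the 56 member regions relative to the gene start (x axis, kb in the direction of transcription) for each gene (y axis), coloured by the number of lists in which the region was found. Thick bars mark the gene, thin lines the 20 kb on either side, and orange triangles the 10 regions with TCF/LEF letters. The 23 regions found in all 4 lists include the starts of Axin2, Lgr5, Tbx3, Znrf3, Cyp1a2, Cyp2e1 and Oat, and none lies at Rspo3 or Wnt2.

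Regions were classed by the transcription start site (TSS) nearest to their edge, counting alternative starts. Within 2.5 kb of a TSS of the member itself lay 18 regions, 6 lay nearest to the start of another gene within that distance, and 32 were distal. The Rnf43 regions 38.6 and 39.7 kb into the gene lay 1019 and 2134 bp from an alternative Rnf43 start. They were nearer to that of another gene and were counted there. Of the 18 member promoter regions, 7 were found in all 4 lists, as were 5 of the 6 at other genes and 11 of the 32 distal regions (34.4%). Over the whole series, 59.1% of promoter-proximal and 24.0% of distal regions were. The 6 regions at other genes were 3 near the middle of Rnf43 at the overlapping gene 1110028F11Rik, 1 downstream of Rnf43 at Supt4h1, 1 downstream of Znrf3 at Kremen1, which encodes another Wnt pathway receptor, and 1 upstream of Cyp1a2 at its neighbour Cyp1a1. A promoter DHS was found for 9, 8, 9 and 9 of the 10 genes in male B6, female B6, male CAST and female CAST, against 54.1, 49.1, 53.3 and 46.3% of 22380 protein-coding genes. With a stricter threshold on the q-value, 8, 6, 8 and 5 of the 10 genes had one in these lists. The share of all protein-coding genes at that threshold was not computed, so these counts cannot be set against a background.

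Values over lists are given below in the order male B6, female B6, male CAST and female CAST, and are the fold enrichment of the summit over local background, a linear ratio computed separately in each list. Axin2, a scaffold of the β-catenin destruction complex and a feedback inhibitor, had a DHS over its first exon (chr11:108781439-108782765) with fold enrichments of 7.82, 5.34, 8.28 and 7.27. The site was present in all lists, and its rank lay between percentiles 83.1 and 89.4 of the peaks in each list. A second Axin2 DHS, in an intron 16 kb into the gene and 2011 bp from an alternative start (chr11:108797215-108798177), had 7.84, 6.25 and 4.49 in the first 3 lists and no peak in female CAST. It thus equalled the start region in male B6, stood above it in female B6 and below it in male CAST, and was missing in female CAST.

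Tbx3, a transcription factor and β-catenin target, had a DHS over its first exon (chr5:120120187-120121293) at 8.86, 6.10, 7.64 and 6.92. It also lay 81 bp from the start of the gene Gm2301. A weaker intronic site 5.7 kb into the gene was found only in B6, at 2.79 in males and 2.26 in females. A site 15.2 kb from the start was found in male CAST only, at 1.98. The Tbx3 start was therefore open in every list, while both weaker sites were found in 1 strain.

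Lgr5, the R-spondin receptor, had a single region, which lay just inside the gene over an annotated start (chr10:115023183-115024608), at 4.84, 4.07, 4.29 and 3.99. The spread over the lists was small, and the peak was wide, between 1095 and 1419 bp against list medians of 531 to 596 bp. No further DHS was found in the remaining gene body of this 137 kb gene.

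Znrf3, one of the ligases that Lgr receptors hold in check, had its highest value at the gene start (chr11:5344715-5345526), at 8.79, 7.44, 10.2 and 8.06. Upstream, 7.2 kb away, the site with TCF/LEF letters had 3.91, 4.29, 7.18 and 6.00, so that both CAST lists lay above both B6 lists. Inside the gene, 147.7 kb from the start, a site had 6.60, 5.45, 4.90 and 3.93, with the strains in the opposite order. A pair of further intronic sites was found in all lists, 22.7 kb from the start at 6.89, 5.17, 5.78 and 4.70 and 18.3 kb from it at 4.13, 2.95, 4.12 and 4.05. A site 64.3 kb into the gene and 847 bp from an alternative start had 3.97, 2.61 and 4.85 and no peak in female CAST.

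Rnf43, the paralogous ligase, had a weak start. The DHS there (chr11:87475814-87476570) had 3.07, 2.81 and 2.89 in male B6, male CAST and female CAST and no peak in female B6. Another 3 weak sites within 2.5 kb of an Rnf43 start, 1.7, 2.8 and 3.8 kb into the gene, were found in male B6 only, at 1.86, 2.44 and 1.8. The site with TCF/LEF letters in the intron 26.9 kb into the gene (chr11:87502789-87504324) was found in all lists at 3.83, 3.65, 4.13 and 4.39, higher than the start in each of the 3 lists with a peak at the start. The stronger sites of this window belonged to neighbours, with 7.49, 5.11, 7.57 and 5.39 at the start of 1110028F11Rik and 10.3, 6.01, 9.91 and 7.73 at the start of Supt4h1. The former lies 1019 bp from an alternative Rnf43 start and was the reason why Rnf43 counted as having a promoter DHS in female B6.

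By the strongest region of each gene in a list, the ligand genes had the lowest values. Rspo3 had no promoter DHS in any list and 2 regions in male B6 only, at 2.2 (18.9 kb upstream) and 2.26 (94.3 kb from the start, downstream of the gene), with summit pileups of 35 and 36 reads where the lowest pileup called over the genome-wide background of that list was 30. Wnt2 had a promoter DHS 1.1 kb upstream of its start (chr6:17981221-17981953) at 2.90, 2.23 and 3.80 in male B6, male CAST and female CAST, and none in female B6. An intronic Wnt2 site 38.8 kb into the gene was found in both males, at 3.30 and 2.56, and in neither female list. No Wnt2 or Rspo3 region was found in all 4 lists.

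Since Wnt2 and Rspo3 are made mainly outside hepatocytes, markers of other liver cells were counted in the same lists. Promoter DHS were found for 6, 3, 1 and 1 of 6 endothelial markers in the 4 lists, against 54.1, 49.1, 53.3 and 46.3% of all protein-coding genes. Only Stab2, a scavenger receptor of sinusoidal endothelium, was found in all 4, at 6.39, 4.68, 8.13 and 5.45, and Pecam1, Cdh5 and Lyve1 were found in male B6 alone, at 2.08, 2.45 and 2.17. The 5 Kupffer cell markers had no promoter DHS in any list. Of the 5 stellate cell markers only Reln had one, in 3 lists, and of the 5 bile duct markers Sox9 had one in all lists and Spp1 in both males. All 5 hepatocyte markers had a promoter DHS in every list. The endothelial promoters other than Stab2 stood between 2.08 and 2.68 in male B6, where a peak over the genome-wide background needed at least 1.90. Stab2 had its highest value in male CAST. Rspo3 had its 2 regions in male B6 only. Wnt2 had 2 regions in each male list and its highest promoter value in female CAST. The part of the endothelial share of nuclei in the Wnt2 and Rspo3 values was not tested.

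Among the enzymes, Cyp2e1, an ethanol-inducible cytochrome P450 of pericentral hepatocytes, had the site with the highest fold enrichment of all member regions in each list other than male B6, where 3 others stood above it. It lay 14.9 kb upstream (chr7:147933962-147935094) at 8.64, 7.69, 11.4 and 9.69. The site with TCF/LEF letters 6.9 kb upstream had 6.59, 5.56, 8.00 and 5.40, and the gene start (chr7:147949096-147950042) had 6.15, 5.38, 6.8 and 6.08. The upstream sites were thus at least as strong as the promoter in 3 of 4 lists, with the nearer one lower than the promoter in female CAST. A weaker site in a coding exon near the end of the gene, 10.7 kb from the start, was found in all lists at 2.46, 2.5, 2.64 and 2.8.

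Cyp1a2, a cytochrome P450 that metabolises caffeine and aromatic amines, had a weaker start (chr9:57531263-57532225) at 3.32, 2.53, 4.27 and 4.23, with both CAST lists above both B6 lists. Downstream of the gene, 3 sites were found in all lists: 13.8 kb past the start at 4.8, 4.1, 5.85 and 3.77, 19 kb past it at 5.44, 4.0, 5.75 and 3.77, and the site with TCF/LEF letters 12.2 kb past it at 3.19, 3.07, 3.51 and 3.32. The last of these varied least over the lists. The site 2.6 kb upstream whose sequence is shown above was found only in B6, at 2.23 in males and 2.19 in females. At the Cyp1a1 end of the window, 12.8 kb upstream, a site was found in all lists at 3.21, 2.88, 4.59 and 3.35.

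Oat, which encodes ornithine aminotransferase, had a start region (chr7:139767329-139768417) at 3.73, 3.13, 3.03 and 3.69. It was the only one of 8 Oat regions found in female B6, where male B6 held 5, male CAST 8 and female CAST 4. In an intron, 1.6 kb from the start, a site had 3.44, 3.13 and 3.91 in the lists other than female B6. A site 9.5 kb upstream was found in the same 3 lists at 2.81, 5.18 and 3.02. The site with TCF/LEF letters 2.0 kb upstream of the start was found in male CAST alone, at 4.04 and a summit pileup of 118 reads.

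**Figure D3:**
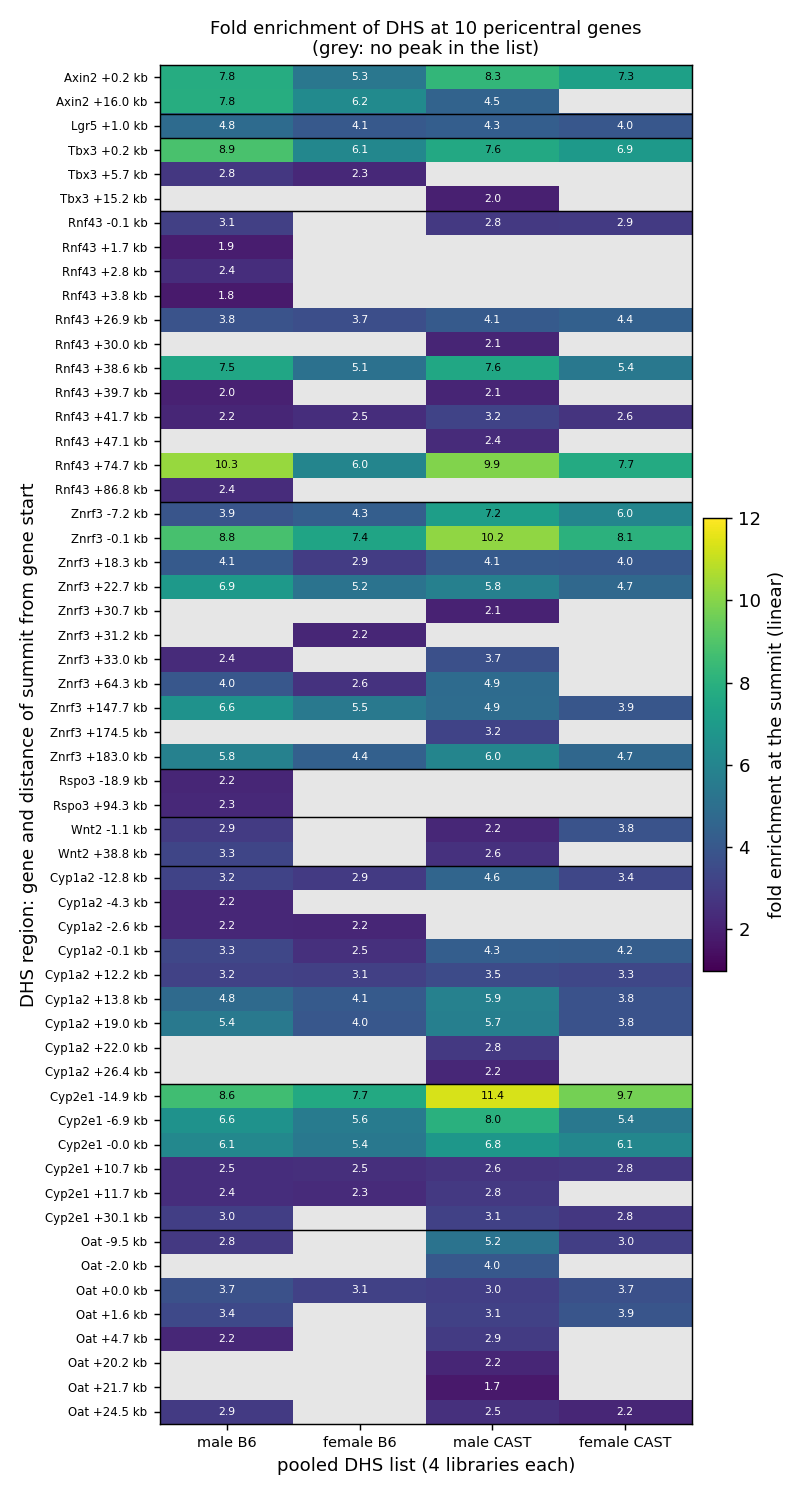
Fold enrichment at the summit (colour and printed value, linear scale) of the 56 member regions (rows, by gene and distance of the summit from the gene start) in the 4 pooled lists (columns), with grey for no peak. The gene starts of Axin2, Tbx3 and Znrf3 and the 3 Cyp2e1 sites from 14.9 kb upstream to the start are above 5 in every list, and the female lists have more grey than the male lists.

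The gene starts differed in base composition, which the choice of genes did not use. The ratio of observed to expected CpG dinucleotides in the 300 bp around the summit was 0.957 at Axin2, 0.985 at Tbx3, 0.971 at Znrf3 and 0.995 at Oat, and 0.491 at Lgr5, 0.363 at Rnf43, 0.173 at Cyp1a2 and 0.218 at Cyp2e1. The Lgr5 window was centred 995 bp inside the gene, in a region over an annotated start, so its value is not that of the gene's outermost start. The median over all promoter-proximal regions was 0.672, so that 4 of these 8 windows lay above it and 4 below. The Wnt2 promoter region, with its summit 1.1 kb upstream, had 0.521 and is not counted among the 8. The CpG-rich starts of Axin2, Tbx3 and Znrf3 had higher fold enrichment than the 4 regions with CpG-poor windows in every list. The exception was female B6, where Axin2 stood at 5.34 and Cyp2e1 at 5.38. The CpG-rich start of Oat was lower than the CpG-poor start of Cyp2e1 in every list. Of these 8 start regions, 7 were found in all lists, and that of Rnf43 in 3.

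The sexes were compared within each strain. In B6, 28 of 46 member regions were found in both sexes (60.9%, Wilson 95% interval 46.5 to 73.6%), close to the 58.4% of all regions, 17 were found in males only and 1 in females only. The B6 backgrounds over all regions were 36.4% for males only and 5.13% for females only. In CAST, 29 of 46 member regions were found in both sexes (63.0%, 48.6 to 75.5%, against 55.8%), 17 in males only and none in females only, against backgrounds of 40.3 and 3.9%. The surplus of male-only over female-only regions at these genes was thus of the kind seen over the whole lists, which also differed in depth and size. With lists of equal size it turned round in B6, to 3 male-only and 5 female-only regions (14.3 and 13.1% over all regions), and stood at 7 and 3 in CAST (14.9 and 13.6%). After depth matching there were 14 male-only and 1 female-only regions in each strain. The shares over all regions were then 34.6 and 3.94% in B6 and 36.7 and 4.42% in CAST. Read depth sets the genome-wide background, the pileup recovered for peaks without a raised local background, and it was 15.4 and 13.9 reads in males and females of B6 and 14.3 and 7.94 in those of CAST. Both males and neither female held 4 regions (7.14% of member regions, against 9.38% of all regions), which were the intronic Wnt2 site, the Znrf3 site 33 kb into the gene, the Rnf43 site 39.7 kb from its start at 1110028F11Rik and the Oat site 4.7 kb into the gene. Their fold enrichments in male B6 were 3.30, 2.37, 2.01 and 2.24. No member region was found in both females and neither male, and 0.0622% of all regions were.

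In regions found in both sexes, the ratio of fold enrichments was centred on the median over all shared regions of the 2 lists, which was a log2 ratio of 0.40 for male over female in B6 and 0.25 in CAST. The median log2 ratio of male over female was -0.15 in B6 and -0.04 in CAST after centring and 0.25 and 0.21 without it. After centring, 9 of 28 member regions were higher in males in B6 and 13 of 29 in CAST. A difference of at least 1.5-fold was the size the study used for DNase-seq. The study applied it in a differential analysis of the libraries with a false discovery limit, so the counts here, from ratios of summit enrichment, are not comparable with its calls. In B6 it was reached by no member region in either direction, against 2.62% of all shared regions for higher in males and 2.6% for higher in females. In CAST it was reached by no member region for higher in males, against 3.31%, and by 1 for higher in females, against 2.56%. That region was the Wnt2 promoter site, with a log2 ratio of -1.02 from 2.23 in male CAST and 3.80 in female CAST, where the summit pileup was 33 reads in each list. In B6 the site was called in males and not in females, so no ratio was formed there.

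The strains were compared within each sex. In males, 36 of 55 member regions were found in both strains (65.5%, 52.3 to 76.6%, against 60% of all regions), 9 in B6 only and 10 in CAST only, against backgrounds of 19.1 and 20.9%. With lists of equal size the split in males was 1 in B6 only and 7 in CAST only (16.1% over all regions in each direction). In females, 23 of 35 were found in both strains (65.7%, 49.2 to 79.2%, against 59.1%), 6 in B6 only and 6 in CAST only, against backgrounds of 22.6 and 18.3%. In both B6 lists and neither CAST list, 2 regions were found (3.57% of member regions, against 3.32% of all regions), the Tbx3 site 5.7 kb into the gene and the Cyp1a2 site 2.6 kb upstream, and none in both CAST lists and neither B6 list, where 3.62% of all regions were. The Tbx3 and Cyp1a2 sites named here were found in no list with the stricter threshold, and in female B6 only with lists of equal size. The CAST reads had been mapped to a CAST version of the genome and moved to mm9 coordinates, and the part of this step in strain differences was not tested.

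The median log2 ratio of B6 over CAST was -0.00 in males and 0.09 in females after centring on medians of -0.08 and -0.25 over all regions. Without centring the medians were -0.08 and -0.16, so that in females the sign turned. After centring, 16 of 36 member regions were higher in B6 in males and 16 of 23 in females. In males, 1 member region was at least 1.5-fold higher in B6, against 4.49% of all shared regions, and 2 were higher in CAST, against 6.68%. In females, 1 was higher in B6, against 3.42%, and none in CAST, against 4.97%. The Axin2 intron site was higher in B6 males, with a log2 ratio of 0.88, and it was also the site with no peak in female CAST. The Znrf3 site 147.7 kb into the gene was higher in B6 females, at 0.72, and had a ratio in the same direction in males, at 0.51. The Znrf3 site 7.2 kb upstream and the Oat site 9.5 kb upstream were each higher in CAST males, at -0.80, and the former had -0.24 in females. No region called in all 4 lists passed 1.5-fold in both sexes, and no ratio was formed for the Axin2 intron site in females, where B6 had 6.25 and CAST no peak.

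**Figure D4:**
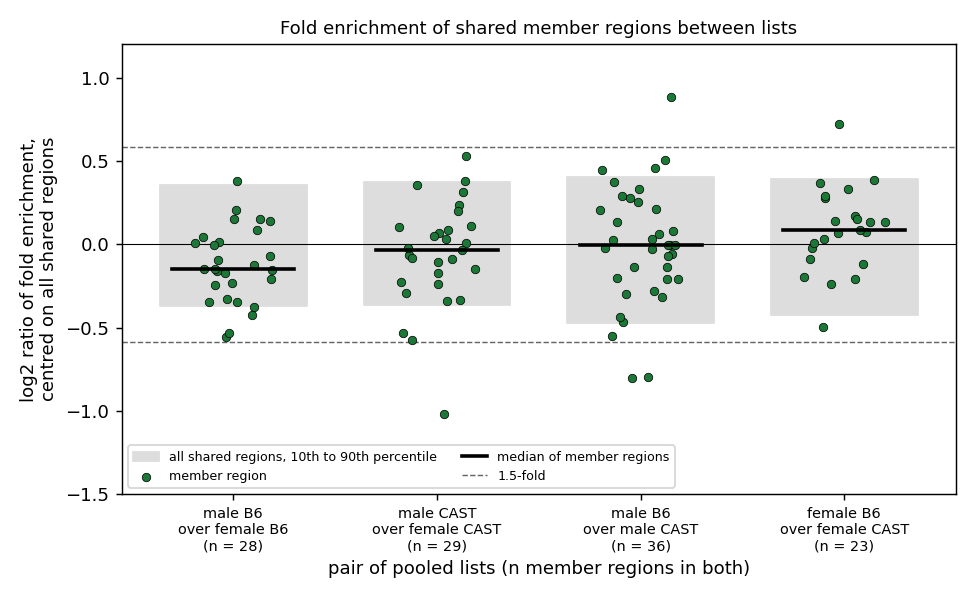
Log2 ratio of fold enrichment for member regions found in both lists of a pair (green points, y axis), centred on all shared regions, for the 4 pairs of lists (x axis). Black lines mark the member medians, grey bands the 10th to 90th percentile of all shared regions, and dashed lines 1.5-fold in either direction. The member medians lie between -0.15 and 0.09, and 5 points in all lie beyond the dashed lines.

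Summits and widths were compared between lists for regions with 1 peak in each. The median distance between summits was 29.5 bp between the sexes in B6 and 34.5 bp in CAST, against 45 and 43 bp over all regions, and 57 bp between the strains in males and 46.5 bp in females, against 43 and 52 bp. Member peaks were a median of 1.12 times as wide in males as in females in B6 and 1.31 times in CAST, against 1.22 and 1.28 over all regions. They were 1.01 times as wide in B6 as in CAST in males and 1.09 times in females, against 1.01 and 1.06. The largest distance between summits was 371 bp, between the sexes in CAST.

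Regions found in 1 list of a pair had lower median values than those found in both. In male B6, the median fold enrichment was 2.40 for member regions absent from female B6 and 4.82 for those present, and in male CAST it was 2.56 for those absent from female CAST and 4.90 for those present. Each pileup was scaled by the ratio of the genome-wide backgrounds to the list that lacked the peak and set beside the lowest pileup that would be called there over the local background, scaled likewise. The regions were chosen as called in the other list, so most scaled values lie above the limit by construction, and the values say only how far. Counting error of a single pileup is not included. The scaled pileup ran from 0.836 to 2.88 times the limit. In female CAST, 14 of 17 regions called in male CAST and 5 of 6 called in female B6 lay above it, and in the other comparisons all regions did. Most of the first sites given next are among the largest ratios. The Axin2 intron site would have had 40.7 reads in female CAST from its male CAST value, where 20 were needed, and 60.4 from its female B6 value, where 21 were needed. The corresponding value from male CAST for the Znrf3 site 64.3 kb into the gene was 40.7, where 19 were needed, and from female B6 it was 21.7. The intronic Oat site 1.6 kb from the start would have had 108 reads in female B6 from its male B6 value, where 52 were needed, and 96.5 from its female CAST value, where 42 were needed. The Oat site 2.0 kb upstream would have had 127 reads in male B6, where 50 were needed, and 65.7 in female CAST, where 31 were needed. From female B6, the Tbx3 site 5.7 kb into the gene would have had 22.2 reads in female CAST, where 22 were needed. The Cyp1a2 site 2.6 kb upstream would have had 23.4 there, where 23 were needed. From male B6 to male CAST, the values of these sites were 50.1 and 59.4, where 33 and 45 were needed. For depth matching, the pileup and background of each called peak were scaled to the depth of female CAST and the p-value limit was applied again. No reads were sampled, so counting error is not included here either. After this scaling, 49 of the 56 regions kept their pattern over the lists, all 23 regions found in all lists among them. Another 6 single-list regions were found in none, and the Wnt2 promoter site was lost from male CAST. The patterns were less stable under the other settings. With lists of equal size, 29 of the 56 regions kept their pattern, and with a stricter threshold on the q-value 14 did, 27 were found in no list and 12 of the 23 stayed in all 4 lists.

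The wider pathway was described from the same lists. Of the 20 other Wnt pathway genes, 16, 15, 18 and 14 had a promoter DHS in the 4 lists, and 14 had one in all 4. The genes with the highest promoter value in any list were Gsk3b, a kinase of the destruction complex, at 10.9, 7.93, 10.5 and 9.98, Ctnnb1, which encodes β-catenin, at 8.46, 7.34, 7.32 and 6.09, the co-receptor Lrp6 at 7.83, 6.38, 7.07 and 6.58 and the R-spondin receptor Lgr4 at 7.01, 4.6, 7.54 and 5.66. Lgr4 thus exceeded Lgr5 in every list. The Wnt secretion factor Wls and the R-spondin Rspo1 had no promoter DHS in any list, as was the case for Rspo3. Tcf7l2 and Tcf7l1, which encode TCF factors, had one in all lists, Tcf7 in 3 and Lef1 in male CAST only.

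The 8 further pericentral genes had a promoter DHS in 7, 7, 8 and 6 cases, and the 12 periportal genes in 12 cases in every list. Glul, which encodes glutamine synthetase and is restricted to the innermost pericentral hepatocytes, had 7.43, 3.40, 9.91 and 7.95. Cyp7a1, the rate-limiting enzyme of bile acid synthesis, had 7.40, 4.97, 7.82 and 6.99, and the glutamate transporter Slc1a2 had 2.94, 2.52 and 3.0 and no promoter peak in female CAST. The periportal genes Hal and Pck1 had 9.90, 6.85, 9.55 and 9.59, and 8.55, 6.01, 9.01 and 6.60. Sites found in all lists made up 16 of 39 regions (41.0%) at the further pericentral genes and 47 of 94 (50.0%) at the periportal genes, against 41.1% at the members.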

How the data were processed

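DNase-seq was measured in liver nuclei of 16 mice, 4 per sex and strain, grouped by library title. Per the authors' methods, reads were aligned with Bowtie2 (B6 to mm9, CAST to a CAST version of mm9 with coordinates then moved to mm9), the 4 libraries of a group were merged, DHS were called with MACS2, and blacklisted regions and peaks of duplicated reads were removed. The deposited values per peak were the fold enrichment (a ratio of summit pileup to local background, with a pseudocount of 1), the −log10 p-value and −log10 q-value, a score derived from the latter, and the summit's offset from the start of its peak. They were deposited for pooled lists only, so no sample has a value of its own and n is 1 list per group.

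Peaks of the 4 lists overlapping by at least 1 bp were joined into regions. Genes and start sites came from the GENCODE annotation of mm9 (75543 start sites of 26225 genes), promoter regions lay within 2.5 kb of a start, and coordinates count from 1. Summit pileup and background were recovered from fold enrichment and p-value, and came within 0.02 of a whole number for at least 99.86% of peaks. Read totals are not given in the deposited lists, and those of the study's supplement were not used here. The genome-wide background was the most frequent value in a list. Ratios between lists were centred on the median of all shared regions. Motif letters were searched in mm9 sequence, 300 bp around the summit of the strongest peak. All member genes were named, with every region near a member start, the 10 with the highest fold enrichment, those restricted to a sex or strain in both pairs of lists and those passing 1.5-fold. Other lists were described by counts and examples. The member genes and lists were chosen with earlier results of these data known. Shares were given Wilson 95% intervals (counting error alone). Scripts used Python 3.11.15 with numpy 2.4.6, pandas 2.3.3, scipy 1.17.1 and matplotlib 3.10.9, and joining, recovery and motif search were tested on simulated data. Alternatives were a gene window without flanks or with 10 kb, a 50% reciprocal overlap, a stricter threshold (−log10 q of at least 15.7), lists of equal size (24888 peaks), depth matching (−log10 p of at least 3.55 after scaling of pileup and background), uncentred ratios, the excess of pileup over background, other promoter and motif limits and, added after the data were seen, leaving out regions at other genes' starts.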

Additional observations from a re-analysis of the deposited data

How the results depend on the processing

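Under the alternatives, 72 values stayed within the limits set for an unchanged value (1.5 times for counts, counting intervals for shares and medians) and 19 moved. With the gene body alone, the numbers of regions were 26, 18, 25 and 16 in male B6, female B6, male CAST and female CAST. With the stricter threshold they were 24, 17, 28 and 12, and the member genes with a promoter DHS in female CAST numbered 5. The shared percentages were then 42.9% between the sexes in CAST and 79.3% between the strains in males. Over all regions of the 2 CAST lists at that threshold, 50.9% were in males only and 0.146% in females only. Over all regions of the 2 male lists, 13.4% were in B6 only and 18.4% in CAST only. With lists of equal size, male B6 held 27 regions and the sexes shared 75% in B6, where the surplus of male-only regions turned round (3 male-only and 5 female-only). Over all regions of the 2 B6 lists, 14.3% were then male-only and 13.1% female-only. Without centring, the median log2 ratios were 0.25 for male over female in B6, 0.21 in CAST and -0.16 for B6 over CAST in females, each of the sign opposite to the centred value. With the excess of pileup over background, they were -0.30 for the sexes in B6 and -0.14 for the strains in males. With the shorter letters TCAAAG, 41.1% of member regions matched, against 21.4% of all regions, and over whole regions ATCAAAG was found in 25% against 10.2%. Without regions at other genes' starts, an alternative chosen after seeing the data, the lists held 39, 24, 40 and 24 member regions. The cause of these changes was not tested. No paired analysis was possible because the libraries of each group were merged into 1 list before peaks were called, which also left no replicate to leave out. Depth limits weak sites most: a peak over the genome-wide background needed a fold enrichment of at least 1.90, 1.94, 1.90 and 2.24 in the 4 lists, so the absence of a site near these values is not evidence that it was closed.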
